A study of Homo sapiens with 12 samples.

Results

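The data described here are 6 expression arrays of HK-2 cells that received vehicle alone, 3 collected at 12 h and 3 at 48 h, out of 12 arrays in the series. They were chosen by their labelled treatment and time, and the 6 arrays of cells exposed to the compound called Di were not used. The series belongs to a larger study of compounds that harm kidney cells, in which gene expression patterns were sought that mark toxicity. HK-2 is an established line of human renal proximal tubular cells, the cells that reabsorb most of the filtered glucose, amino acids and salt, immortalised with papillomavirus oncogenes that act on the p53 and retinoblastoma proteins. All cultures shared a mixture of DMEM and Ham's F12 with 5 mM glucose and 2 mM Glutamax, to which EGF (10 ng/ml), insulin and transferrin (5 µg/ml each), hydrocortisone (36 ng/ml) and selenite (5 ng/ml) had been added. Per the labels, 700000 cells were plated in each well of a 6-well plate with 2 ml of medium, and vehicle was added 24 h later at about 90% confluence. The 12 h group is the vehicle control of Di at 12 h and the 48 h group that of Di at 48 h, each with 3 biological replicates, so n = 3 per group applies to every value. Neither the vehicle, nor whether the medium was renewed, nor the cell number at collection is given in the sources used here. The comparison therefore holds the time since vehicle was added, the age of the medium and the density of the cells together, and these cannot be told apart.

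When nutrients run short or proteins fail to fold in the endoplasmic reticulum (ER), cells slow protein synthesis and switch on repair genes. The unfolded protein response works through the ER sensors IRE1, PERK and ATF6 and raises ER chaperones, while kinases that sense unfolded protein or missing amino acids lead to translation of ATF4, which activates amino acid transport and synthesis. Epithelial cells that fill the dish usually leave the cell cycle, lower the activity of the growth-promoting factor YAP and tighten their junctions, and proximal tubule cells in culture are known to lose much of their specialised transport.

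On each array a probe set is a group of short probes against 1 transcript, and its deposited value is a log2 level, so that a difference of 1 is a 2-fold change. A gene counted as measured when its probe set lay above 4, the floor used here, on 3 or more of the 6 arrays, which gave 10442 genes. Arrays of the same group correlated at 0.997 to 0.998 over probe sets (features of 1 array, not replicates), and those of different groups at 0.986 to 0.987. No array stood apart, with medians of 2.97 to 3.02 and 20748 to 21115 probe sets above the floor. RNA quality was read from actin and GAPDH as the log2 level at the 3' end minus that at the 5' end. For actin this gap was 1.71 ± 0.178 (SD) at 12 h and 1.33 ± 0.128 at 48 h, and for GAPDH 0.126 ± 0.0841 and 0.000125 ± 0.0206. Neither gap overlapped between the groups (two-sided exact permutation p = 0.1 for each, the smallest that 3 against 3 arrays can give), and its part in any result below was not tested.

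The label was checked against markers. The epithelial keratins were present, with KRT18 at 11.69 ± 0.0606 at 12 h and 12.21 ± 0.0971 at 48 h and KRT19 at 11.68 ± 0.00100 at 12 h and 11.42 ± 0.0544 at 48 h (SD), and the renal transcription factor PAX8 lay at 9.57 ± 0.0664 at 12 h and 9.34 ± 0.0156 at 48 h. Of 32 proximal tubule genes with a probe set, 7 were measured, among them the bicarbonate transporter SLC4A4 and the inositol-degrading enzyme MIOX. The brush border and transport genes ANPEP, GGT1, AQP1, LRP2, CUBN and SLC34A1 lay under the floor at both times, as did PAX2. DPP4, PDZK1 and SLC3A1 lay above it, with mean log2 levels of 10.53, 10.22 and 8.67 at 12 h. At 48 h these were 11.07, 10.44 and 8.79. None of 10 leukocyte markers and 1 of 10 endothelial markers (ESAM) was measured. Of 13 fibroblast and mesangial markers 5 were, while PDGFRA, PDGFRB, THY1 and FAP lay under the floor. The 5 were RGS5, DCN, COL14A1, LUM and FBLN1, with means of 12.24, 11.05, 10.48, 9.39 and 7.90 at 12 h. At 48 h these were 12.12, 9.90, 11.12, 8.19 and 7.75. Of 15 distal and collecting duct markers 3 were measured. Of 5 podocyte markers with a probe set 3 were, PTPRO, PODXL and SYNPO, with PTPRO, a receptor phosphatase, at 12.86 ± 0.112 at 12 h and 12.39 ± 0.137 at 48 h, and the summed linear level of that list was 6990 to 8127 at 12 h and 4975 to 5996 at 48 h. Their part in the results was not tested.

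Vehicle cultures changed widely between 12 h and 48 h. At an adjusted p under 0.05 in limma, 2494 genes were higher at 48 h (23.9%) and 3513 lower (33.6%), together 57.5% of those tested. Of 18417 probe sets, 52.8% passed at the same threshold. Since so many genes pass, the counts below are also given for genes that passed and changed at least 2-fold, with the floor of 4 standing for any group mean under it, which 416 genes did upward (3.98%) and 694 downward (6.65%). The shares of 23.9% and 33.6% are the background for each count of members called higher or lower. The median log2 change over all genes was -0.065. The p-values measure the spread between 3 cultures a group on 1 array each, and the number of arrays limits the precision. In these bulk samples, a change in the share of cells that express a gene and a change in RNA per cell cannot be told apart.

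**Figure D1:**
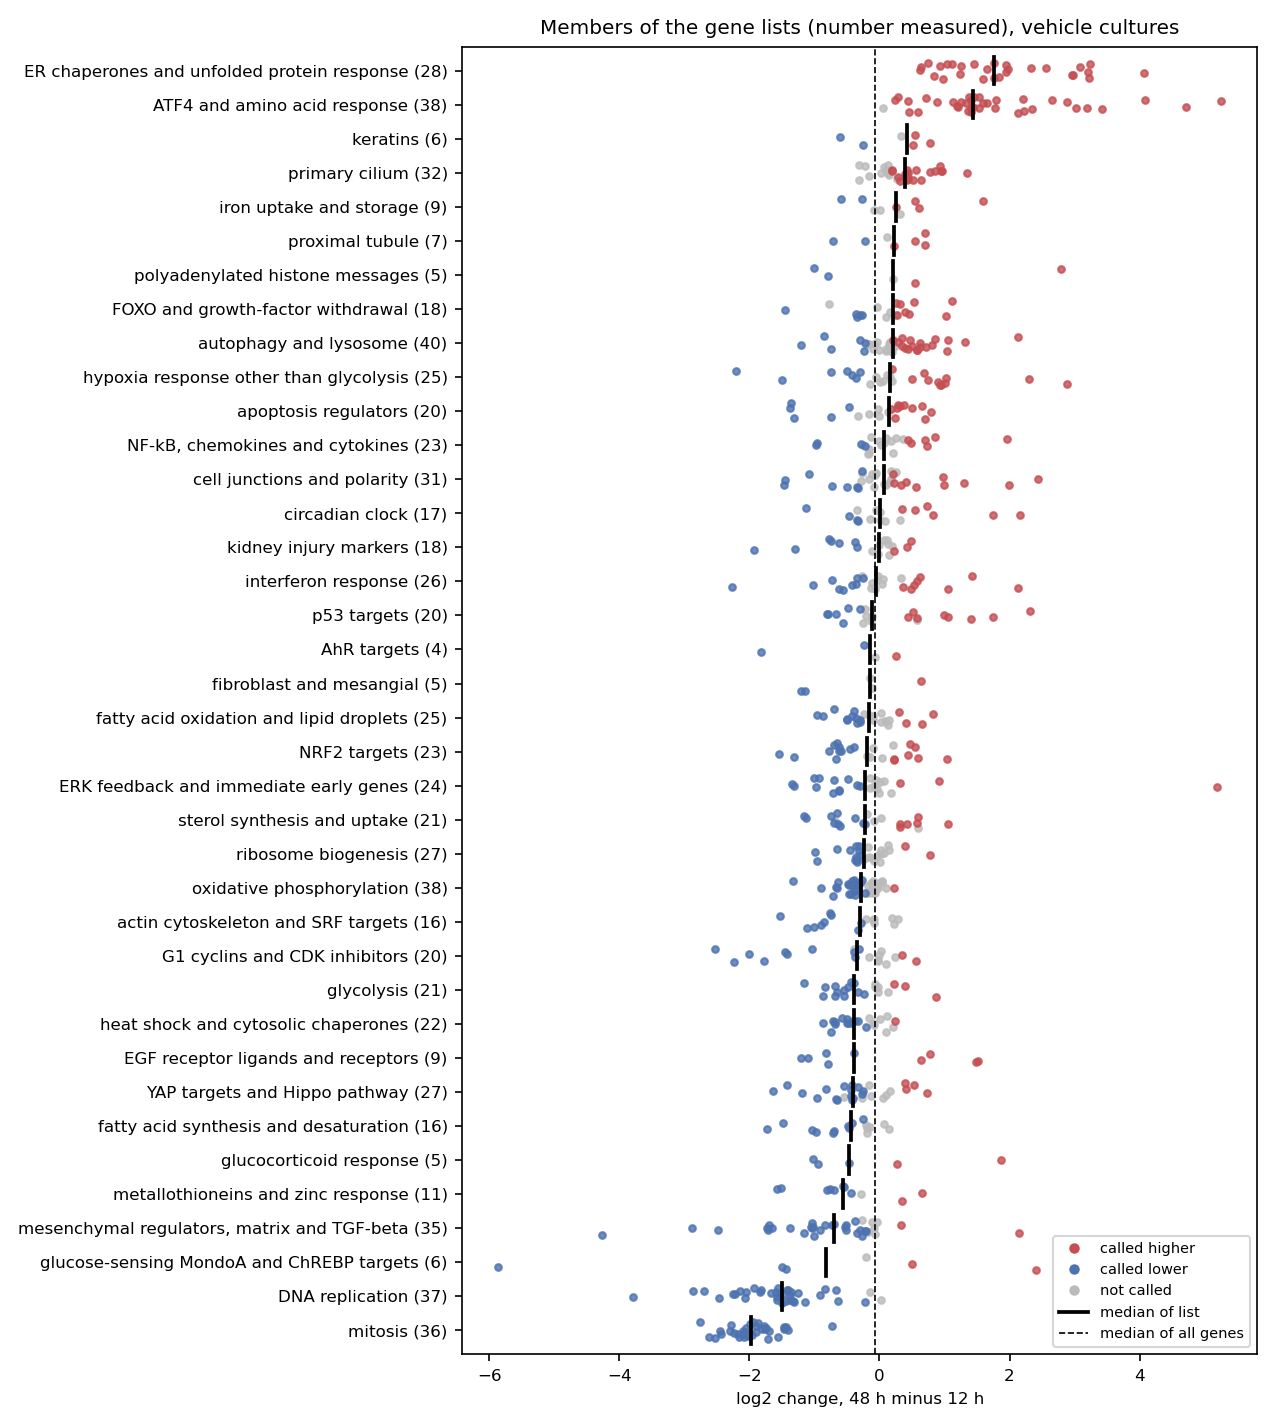
Log2 change from 12 h to 48 h (x axis) of every measured member of each gene list (rows, number measured in brackets), with red points called higher, blue points called lower and grey points not called at an adjusted p under 0.05, a thick bar at the list's median and a dashed line at the median of all genes. Genes with a group mean under the floor are drawn at their fitted change. The lists of ER chaperones (median 1.76) and of ATF4 targets (1.44) lie farthest to the right, and those of mitosis (-1.98) and DNA replication (-1.49) farthest to the left.

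The 3 largest rises among genes with means above the floor at both times were those of INHBE, DDIT3 and ATF3, each far above its 12 h range. INHBE, which encodes an activin subunit, lay at 7.19, 7.07 and 7.07 at 12 h and at 12.39, 12.38 and 12.45 at 48 h. All 3 arrays at 48 h were above all 3 at 12 h, a rise of 5.29 ± 0.0677 (SE, 39.2-fold, adjusted p = 4.63e-08). DDIT3, which encodes the stress transcription factor CHOP, lay at 7.47, 7.46 and 7.35 at 12 h and at 12.52, 12.68 and 12.84 at 48 h. Its rise of 5.25 ± 0.0934 (38.1-fold, adjusted p = 1.33e-07) was the second of these by size. ATF3, a transcription factor induced by ATF4, lay near the floor at 12 h and well above it at 48 h, at 4.42, 4.58 and 3.90 at 12 h and at 9.41, 9.46 and 9.58 at 48 h. It rose by 5.18 ± 0.165 (36.3-fold, adjusted p = 1.11e-06), and the gene's other probe set rose too. NUPR1, a stress-induced chromatin protein, rose at least 23.5-fold and the cystine transporter SLC7A11 16.9-fold (adjusted p = 1.49e-06 and 1.33e-07). Other large rises were those of BEX2 (19.8-fold), the ER chaperone partner SDF2L1 (16.8-fold), the ER oxidase ERO1B (14.6-fold), LRRC49 (10.9-fold) and the mitochondrial folate enzyme ALDH1L2 (10.7-fold). The secretory chaperone SCG5 (at least 5.08-fold) and the lysosomal membrane protein LAMP3 (at least 5.13-fold) had 12 h means under the floor, so that their place in this order is not known. Where a fold is given as at least a value, the lower group's mean was under the floor of 4, and the higher group's mean is set against that floor.

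The fall with the highest bound was that of TXNIP, which encodes an inhibitor of thioredoxin and of glucose uptake whose transcription follows glucose. TXNIP lay at 9.52, 9.78 and 9.57 at 12 h and at 3.47, 4.20 and 3.62 at 48 h. It was high in all 3 arrays at 12 h and at or near the floor in all 3 at 48 h, a fall of at least 49.3-fold (adjusted p = 1.09e-06), and both of its other kept probe sets fell too. MMP1, interstitial collagenase, lay at 7.55, 7.41 and 7.27 at 12 h and at 2.88, 3.40 and 3.16 at 48 h. Every array at 48 h was under the floor, and MMP1 fell at least 10.6-fold (adjusted p = 1.12e-06). The replication initiation factor MCM10 fell at least 10.4-fold. Large falls with both means above the floor included those of the kinetochore protein SPC25 (9.25-fold), the condensin subunit NCAPH (8.73-fold), the spindle protein GTSE1 (8.72-fold), the transcriptional repressor E2F8 (7.29-fold) and tissue plasminogen activator, PLAT (7.37-fold). The naming rule, which ranks fitted differences, also took the helicase BLM (at least 4.51-fold), TNFAIP6, a hyaluronan-binding protein (at least 4.06-fold), the sodium channel gene SCN3A (at least 6.58-fold) and SLN, a small regulator of the calcium pump (at least 4.35-fold), whose order among the falls is not known where a bound is given.

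**Figure D2:**
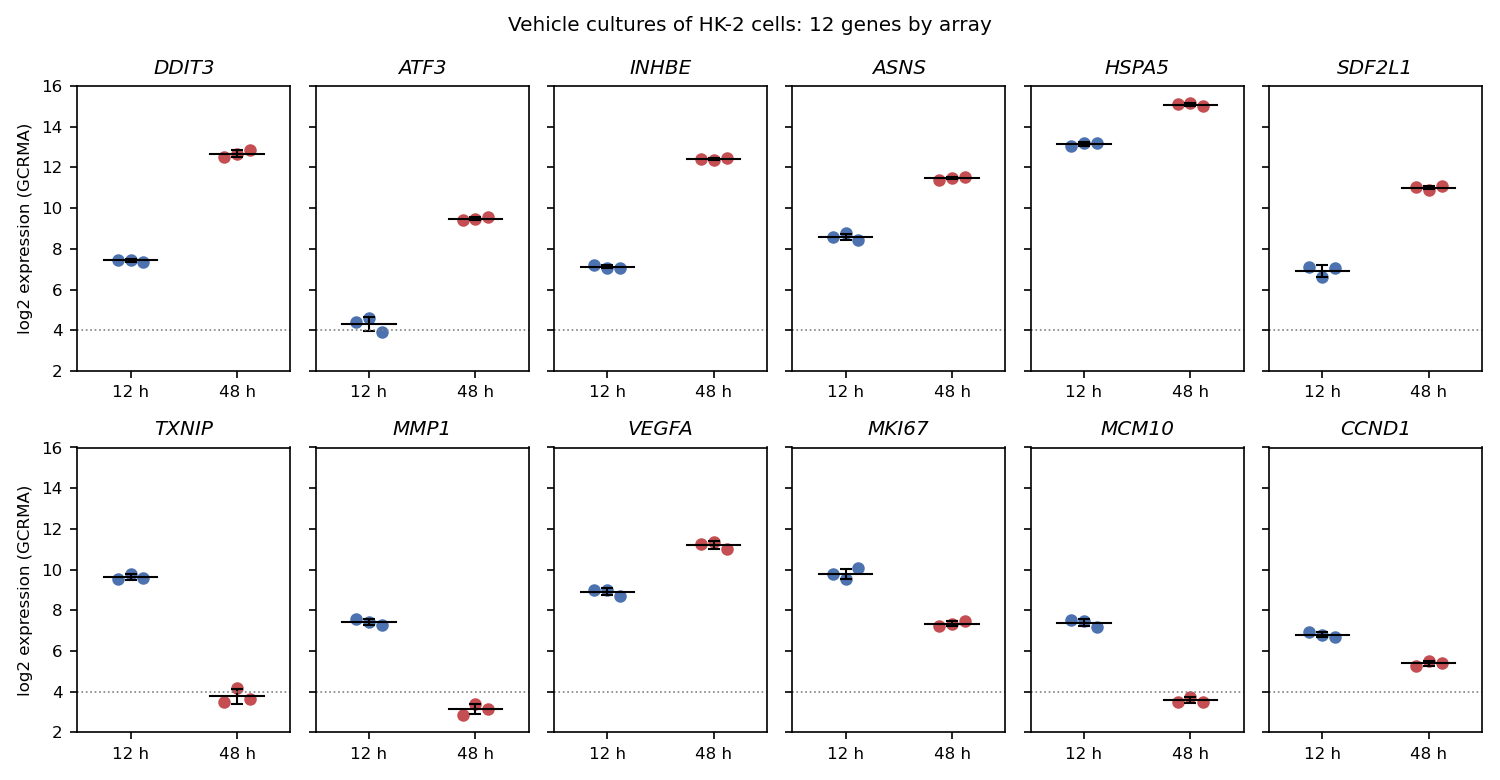
Log2 level (y axis) of 12 genes in each of the 3 vehicle arrays at 12 h and at 48 h (points), with a bar at the mean, error bars of 1 SD and a dotted line at the floor of 4. The 48 h points lie above the 12 h points for DDIT3, ATF3, INHBE, ASNS, HSPA5, SDF2L1 and VEGFA and below them for TXNIP, MMP1, MKI67, MCM10 and CCND1, with no overlap in any of the 12 panels.

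Genes of the unfolded protein response rose together. All 28 measured members of the list (of 29) were called higher, 22 of them at least 2-fold, where 3.98% of all genes were, and the median change was 1.76. All 28 also had groups that did not overlap, against 27.9% of all genes in that direction. The sensors were part of it: ERN1, which encodes IRE1, rose by 3.24 ± 0.0789 (9.43-fold), ATF6 by 1.12 ± 0.0754 (2.17-fold) and EIF2AK3, which encodes PERK, by 0.97 ± 0.0651 (1.96-fold). This and all other lists were chosen with earlier results of these data known, so their directions are not independent evidence.

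Chaperones of the ER lumen held the largest change of the list. HSPA5, the master chaperone BiP, lay at 13.03, 13.18 and 13.20 at 12 h and at 15.10, 15.15 and 15.02 at 48 h. Although already high at 12 h, HSPA5 was higher in every array at 48 h and rose by 1.95 ± 0.0768 (3.87-fold, adjusted p = 1.88e-06). SDF2L1, a partner of BiP, lay at 7.12, 6.60 and 7.06 at 12 h and at 11.02, 10.91 and 11.07 at 48 h. The 12 h values spread more than those at 48 h, and the rise was 4.07 ± 0.140 (16.8-fold, adjusted p = 1.24e-06). The BiP cochaperones DNAJB9 and DNAJC3 rose 9.26-fold and 8.47-fold, and HYOU1, an exchange factor for BiP, 7.90-fold. The calcium-binding lectins CALR and CANX, which fold glycoproteins, rose 3.38-fold and 1.68-fold. Of the disulfide isomerases, which form and shuffle disulfide bonds, PDIA4 rose 3.92-fold, PDIA6 1.91-fold and PDIA3 1.79-fold.

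Genes that remove misfolded protein from the ER rose in all 6 measured cases, 5 of them at least 2-fold. HERPUD1, a scaffold of the degradation complex, lay at 10.55, 10.49 and 10.35 at 12 h and at 13.75, 13.68 and 13.64 at 48 h. The groups were far apart, with a rise of 3.22 ± 0.0771 (9.34-fold, adjusted p = 7.2e-07). SEL1L, which holds the ubiquitin ligase of that complex, rose 5.90-fold with all 3 of its other probe sets called the same way, and EDEM1, which marks glycoproteins for removal, rose 2.38-fold. The secreted stress proteins CRELD2 and MANF rose 7.75-fold and 5.05-fold. XBP1, the transcription factor that IRE1 activates by splicing, rose 3.14-fold, a change in total message, since spliced and unspliced forms were not separated here. PPP1R15A, which reverses the block on translation, rose 3.39-fold.

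Promoters of this list were searched for the ER stress element, here written as CCAAT, 9 bases of any kind, and CCACG, on both strands. The search covered the 250 bases before the gene start in RefSeq's GRCh38.p14 annotation. The element stood in 5 of 24 list promoters available (20.8%: CALR, CRELD2, HSP90B1, HSPA5 and XBP1). It stood in 0.0769% of 27305 promoters of all genes and in 0.138% of 8676 promoters of the genes tested. Below are the promoters of the chaperone genes HSPA5 (chr9:125241344-125241593 on the minus strand) and CALR (chr19:12938359-12938608 on the plus strand) and of XBP1 (chr22:28800570-28800819 on the minus strand), printed 5′ to 3′ along the gene, with the element in capitals. It begins 66 bases before the start in HSPA5, 225 in CALR, where it runs on the opposite strand, and 52 in XBP1. A match describes the letters and is not a measured binding site. The list was assembled as genes of this response, so its share of matches is a description and not a test.
HSPA5: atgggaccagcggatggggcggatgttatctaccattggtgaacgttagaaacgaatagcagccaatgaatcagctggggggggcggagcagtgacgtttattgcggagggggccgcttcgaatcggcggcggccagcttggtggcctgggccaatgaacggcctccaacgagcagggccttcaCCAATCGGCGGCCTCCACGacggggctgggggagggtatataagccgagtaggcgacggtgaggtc
CALR: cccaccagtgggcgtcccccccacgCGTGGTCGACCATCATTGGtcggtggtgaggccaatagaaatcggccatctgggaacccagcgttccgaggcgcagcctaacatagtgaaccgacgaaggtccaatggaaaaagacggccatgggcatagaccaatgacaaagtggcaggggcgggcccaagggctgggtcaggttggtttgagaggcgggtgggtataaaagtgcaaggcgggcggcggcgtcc
XBP1: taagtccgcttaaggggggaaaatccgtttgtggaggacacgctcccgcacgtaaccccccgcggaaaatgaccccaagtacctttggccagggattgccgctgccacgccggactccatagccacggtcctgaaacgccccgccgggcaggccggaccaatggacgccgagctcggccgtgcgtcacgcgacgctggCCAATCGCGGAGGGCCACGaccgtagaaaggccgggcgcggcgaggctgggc

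Targets of ATF4, which supply amino acids and restrain translation, rose too. Of 38 measured members (of 41), 37 were called higher and none lower, 30 of them at least 2-fold against 3.98% of all genes, with a median of 1.44. The exception was PSAT1, an enzyme of serine synthesis, at 11.48 ± 0.0330 at 12 h and 11.53 ± 0.0167 at 48 h (SD; change 0.054 ± 0.0612, adjusted p = 0.473). ATF4 itself, which is controlled mainly in its translation, lay at 11.44, 11.23 and 11.38 at 12 h and at 13.03, 13.00 and 13.00 at 48 h. All 48 h values exceeded the 12 h values, a rise of 1.66 ± 0.0749 (3.16-fold, adjusted p = 3.36e-06). Its dimer partners CEBPB and CEBPG rose 2.60-fold and 3.02-fold.

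Amino acid transporters rose in all 7 measured cases. SLC7A11, which imports cystine in exchange for glutamate, lay at 6.51, 6.35 and 6.35 at 12 h and at 10.48, 10.52 and 10.44 at 48 h. The 48 h arrays all stood far above the 12 h arrays, and the rise was 4.08 ± 0.0725 (adjusted p = 1.33e-07). SLC3A2, the shared heavy chain of several transporters, rose 9.15-fold, and SLC7A5, its partner for leucine and other large amino acids, 6.28-fold. The glutamine transporters SLC1A5 and SLC38A2 rose less, 1.63-fold and 1.19-fold.

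Enzymes that make amino acids and one-carbon units followed, with 9 of 10 called higher. ASNS, asparagine synthetase, lay at 8.60, 8.75 and 8.45 at 12 h and at 11.40, 11.50 and 11.54 at 48 h. It was higher in every 48 h array and rose by 2.88 ± 0.0920 (7.37-fold, adjusted p = 1.11e-06). CTH, which makes cysteine from cystathionine, rose 8.14-fold, the mitochondrial carboxykinase PCK2 3.47-fold, PHGDH, which starts serine synthesis, 2.71-fold and the folate enzyme MTHFD2 2.90-fold. All 11 measured genes for tRNA synthetases and tRNA export rose, from TARS1 at 1.37-fold to WARS1 at 5.10-fold, with the alanyl and seryl enzymes AARS1 and SARS1 at 4.60-fold and 3.43-fold. Brakes on growth rose as well: TRIB3, an inhibitor of AKT and of ATF4, rose 4.67-fold, EIF4EBP1, which holds back cap-dependent translation, 2.88-fold and the glutathione-degrading enzyme CHAC1 4.36-fold.

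**Figure D3:**
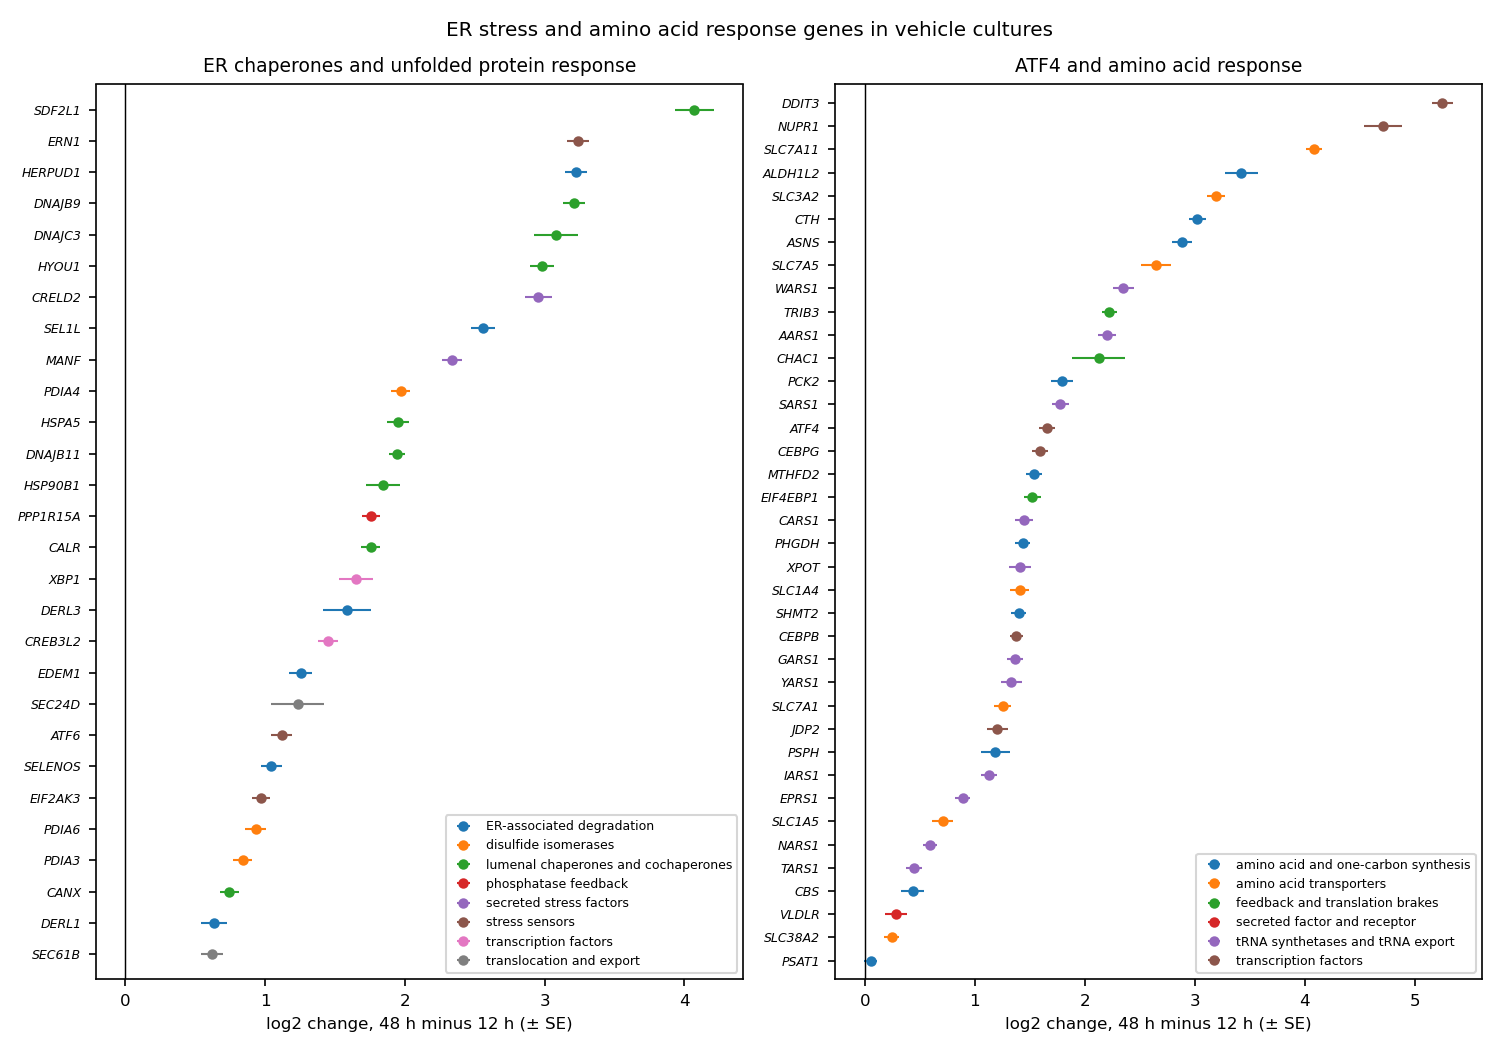
Log2 change from 12 h to 48 h (x axis, points with bars of 1 SE) of each measured gene of the unfolded protein response (left) and of the ATF4 and amino acid response (right), coloured by role. Every point but PSAT1 lies to the right of 0 by more than its SE, from SEC61B (0.62) to SDF2L1 (4.07) on the left and up to DDIT3 (5.25) on the right.

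The core of the response element that ATF4 binds with its partners, TGATGNAA on either strand, stood in 4 of 31 list promoters available (12.9%: AARS1, ASNS, CHAC1 and IARS1), in 3.19% of all promoters and in 1.34% of those of the genes tested. The promoters of ASNS (chr7:97872409-97872658 on the minus strand), which supplies asparagine, and CHAC1 (chr15:40953221-40953470 on the plus strand) are shown because both rose and hold the core, in capitals, 68 and 209 bases before the start, in CHAC1 on the opposite strand. Many known elements of these genes lie outside such a window, and a gene without a match here may hold one elsewhere. In the unfolded protein response list the core stood in 1 of 24 promoters available (4.17%, HERPUD1). The ER stress element stood in 0 of 31 in the ATF4 list. These lists were assembled as known targets, so the shares are descriptions and not tests.
ASNS: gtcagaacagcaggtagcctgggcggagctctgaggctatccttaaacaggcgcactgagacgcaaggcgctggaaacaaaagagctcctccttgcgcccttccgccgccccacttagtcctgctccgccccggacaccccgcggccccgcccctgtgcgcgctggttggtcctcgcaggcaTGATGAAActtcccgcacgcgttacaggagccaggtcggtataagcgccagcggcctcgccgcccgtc
CHAC1: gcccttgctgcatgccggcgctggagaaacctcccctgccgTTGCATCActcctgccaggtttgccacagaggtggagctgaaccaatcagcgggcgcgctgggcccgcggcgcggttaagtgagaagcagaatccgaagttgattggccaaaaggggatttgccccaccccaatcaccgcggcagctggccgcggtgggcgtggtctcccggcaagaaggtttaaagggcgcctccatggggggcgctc

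MondoA and ChREBP are transcription factors that respond to glucose-6-phosphate. The list for these factors holds their partner MLX as well as targets. Of its 6 measured genes 3 were called lower, 2 of them at least 2-fold against 6.65% of all genes, and 2 higher. The lower genes were all arrestin-domain genes: TXNIP, ARRDC4 and ARRDC3. ARRDC4, like TXNIP a brake on glucose uptake, lay at 4.67, 4.56 and 4.37 at 12 h and at 2.91, 3.09 and 3.12 at 48 h. Its 48 h values were all under the floor, a fall of at least 1.45-fold (adjusted p = 1.56e-05), and ARRDC3 fell 2.70-fold (adjusted p = 4.39e-05). The hexokinase relative HKDC1 rose 5.29-fold (adjusted p = 9.86e-07), with all 3 of its other probe sets called the same way.

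Of 21 measured glycolysis genes, 13 were called lower, against 33.6% of all genes, and 3 higher, with a median change of -0.38. HK1, the housekeeping hexokinase, lay at 10.46, 10.74 and 10.73 at 12 h and at 9.43, 9.40 and 9.61 at 48 h. The groups did not overlap, and HK1 fell 2.24-fold (adjusted p = 6.42e-05), the 1 fall of at least 2-fold in the list. PGAM1, the muscle-type pyruvate kinase PKM and LDHA, which makes lactate, fell 1.82-fold, 1.79-fold and 1.58-fold. PFKFB2, a kinase that regulates glycolytic flux, rose 1.82-fold. The glucose transporter SLC2A1 lay at 7.08 ± 0.0297 at 12 h and 7.06 ± 0.156 at 48 h (SD), an overlap of the groups with a change of -0.016 ± 0.0896 (adjusted p = 0.888) whose sign turned under other settings.

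Genes induced by low oxygen, other than glycolysis, were called higher in 11 of 25 cases, against 23.9% of all genes, and lower in 7, against 33.6%. Of these, 4 rose and 2 fell at least 2-fold. VEGFA, the main angiogenic growth factor, lay at 8.91 ± 0.172 at 12 h and 11.21 ± 0.193 at 48 h (SD). It was higher in every 48 h array, by 2.31 ± 0.125 (4.94-fold, adjusted p = 6.43e-06), and all 3 of its other probe sets rose. The secreted glycoprotein STC2 rose 7.42-fold (adjusted p = 1.11e-06). EGLN3, an oxygen-sensing prolyl hydroxylase and a standard target of HIF, fell at least 2.23-fold (adjusted p = 0.000222), and the hormone gene ADM fell 1.33-fold. Among other HIF targets, NDRG1 was up 2.03-fold and PLOD2, a collagen lysine hydroxylase, was down 1.41-fold.

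Fatty acid synthesis fell in 10 of 16 measured genes (62.5%, against 33.6% of all genes) and rose in none, with 3 falls of at least 2-fold against 6.65% of all genes. FASN, fatty acid synthase, lay at 8.98, 8.98 and 9.09 at 12 h and at 7.35, 7.40 and 7.10 at 48 h. The groups were well apart, with a fall of 1.74 ± 0.0944 (3.33-fold, adjusted p = 6.63e-06). ELOVL6, which lengthens palmitate, fell 2.81-fold and SREBF1, the transcription factor of this pathway, 2.04-fold. The desaturase SCD gave -0.20 ± 0.0783 (adjusted p = 0.0626), was called lower with all 12 arrays in the fit, with trend and robust moderation and without replicate 2 at 48 h (adjusted p of 0.0386, 0.0141 and 0.0386), and had the opposite sign with the mean over probe sets (adjusted p = 0.0767). Of the 3 other probe sets of SCD, 2 were called higher and 1 lower. In sterol synthesis 10 of 21 genes were called lower and 6 higher (47.6% and 28.6%, against 33.6% and 23.9% of all genes). The thiolase ACAT2 fell 2.23-fold and the isomerase EBP 2.18-fold, while the sterol carrier STARD4 rose 2.08-fold. HMGCS1, an early enzyme of that route, fell 1.67-fold (adjusted p = 0.000185), a call that ended when all of its probe sets were averaged (adjusted p = 0.177).

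Mitochondrial genes moved little in size. Oxidative phosphorylation had 21 of 38 genes called lower, against 33.6% of all genes, and 1 higher, or none without any array but replicate 1 at 12 h, with a median of -0.29 and 1 fall of at least 2-fold, that of ATP5MC1, a subunit of the ATP synthase rotor (2.52-fold, adjusted p = 6.67e-06). The succinate dehydrogenase subunit SDHA fell 1.87-fold. Of 25 fatty acid oxidation genes 11 were lower and 4 higher, none of them by 2-fold. The coactivator PPARGC1A, which promotes mitochondrial growth, fell 1.82-fold, and the nuclear receptor PPARA, which drives fatty acid burning, rose 1.77-fold. CPT1A, the gate of mitochondrial fatty acid import, gave -0.24 ± 0.0952 (adjusted p = 0.0598).

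Autophagy genes leaned upward, with 19 of 40 called higher (23.9% of all genes were) and 6 lower, and 4 rises of at least 2-fold. WIPI1, which helps build the autophagosome, lay at 8.40, 8.16 and 8.24 at 12 h and at 10.24, 10.53 and 10.41 at 48 h. All 48 h arrays were higher, by 2.12 ± 0.0989 (4.36-fold, adjusted p = 3.76e-06). MAP1LC3B, whose product coats autophagosomes, rose 2.49-fold and the cargo receptor SQSTM1 2.08-fold. The lysosomal galactosidase GLA fell 2.32-fold. Ribosome biogenesis had 12 of 27 genes lower and 2 higher (44.4% and 7.41%, against 33.6% and 23.9% of all genes), none by 2-fold. The nucleolar proteins RRP1B and LYAR were down 1.99-fold and 1.95-fold.

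Cell division genes fell in nearly all measured cases. In the mitosis list all 36 measured genes were called lower and 35 of them at least 2-fold, where 6.65% of all genes were, with a median of -1.98. All 36 had groups without overlap, against 37.9% of all genes in that direction. MKI67, the proliferation marker Ki-67, lay at 9.77, 9.55 and 10.06 at 12 h and at 7.24, 7.32 and 7.48 at 48 h. Each array at 48 h was far below each at 12 h, a fall of 2.45 ± 0.134 (5.45-fold, adjusted p = 6.67e-06), and its 3 other probe sets fell too. CENPE, a kinesin of the kinetochore, fell 6.80-fold, the cytokinesis protein ANLN 6.12-fold and the kinetochore protein NUF2 5.76-fold. The mitotic cyclins CCNB1 and CCNB2 fell 3.44-fold and 2.94-fold, their kinase CDK1 3.51-fold, and FOXM1, the transcription factor of the mitotic genes, 5.38-fold. The smallest fall of the list was that of the centromeric histone CENPA (1.66-fold).

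DNA replication genes fell in 35 of 37 measured cases (94.6%, against 33.6% of all genes). Of these, 30 fell at least 2-fold, against 6.65% of all genes, and the list's median was -1.49. MCM10, which helps to start replication forks, lay at 7.50, 7.46 and 7.19 at 12 h and at 3.51, 3.76 and 3.51 at 48 h. It was clearly above the floor in all 12 h arrays and under it in all 48 h arrays (fall of at least 10.4-fold, adjusted p = 9.86e-07). UHRF1, which carries DNA methylation through replication, lay at 10.59, 10.64 and 10.60 at 12 h and at 7.94, 8.08 and 7.69 at 48 h. It fell 6.50-fold (adjusted p = 1.68e-06), with the groups well apart. The helicase genes MCM2 to MCM7 fell 2.22-fold to 2.98-fold, and among enzymes of nucleotide supply RRM2 fell by 4.67-fold, TK1 by 4.75-fold and TYMS by 3.81-fold. The exceptions were the licensing factor CDC6, at 8.92, 8.89 and 8.78 at 12 h and at 8.79, 9.01 and 8.88 at 48 h, and the primase subunit PRIM1 (-0.15 ± 0.0665, adjusted p = 0.0858). CDC6 values overlapped between the groups (change 0.030 ± 0.0805, adjusted p = 0.769).

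Upstream of both groups, G1 cyclins were among the genes that fell. CCND1, cyclin D1, lay at 6.95, 6.80 and 6.67 at 12 h and at 5.25, 5.51 and 5.43 at 48 h. The groups did not overlap, and CCND1 fell 2.67-fold (adjusted p = 2.52e-05). The S-phase cyclins CCNE1 and CCNE2 fell 4.73-fold and 4.01-fold, the phosphatase CDC25A 5.75-fold and CDK2 3.43-fold. In all, 10 of 20 measured genes of the list were lower (against 33.6% of all genes), 7 at least 2-fold, and 2 were higher (against 23.9%): the inhibitor CDKN1A, which encodes p21, by 1.27-fold (adjusted p = 0.00512), and MYC, a driver of growth, by 1.47-fold (adjusted p = 0.000519). CDKN1B, which encodes p27, an inhibitor that often accumulates as protein in crowded cells, gave 0.020 ± 0.133 (adjusted p = 0.910), with overlapping groups and a sign that turned when single arrays were left out. Levels of CDKN1C and of the pocket protein RB1 gave 0.24 ± 0.0978 and -0.027 ± 0.107 (adjusted p = 0.0659 and 0.841).

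**Figure D4:**
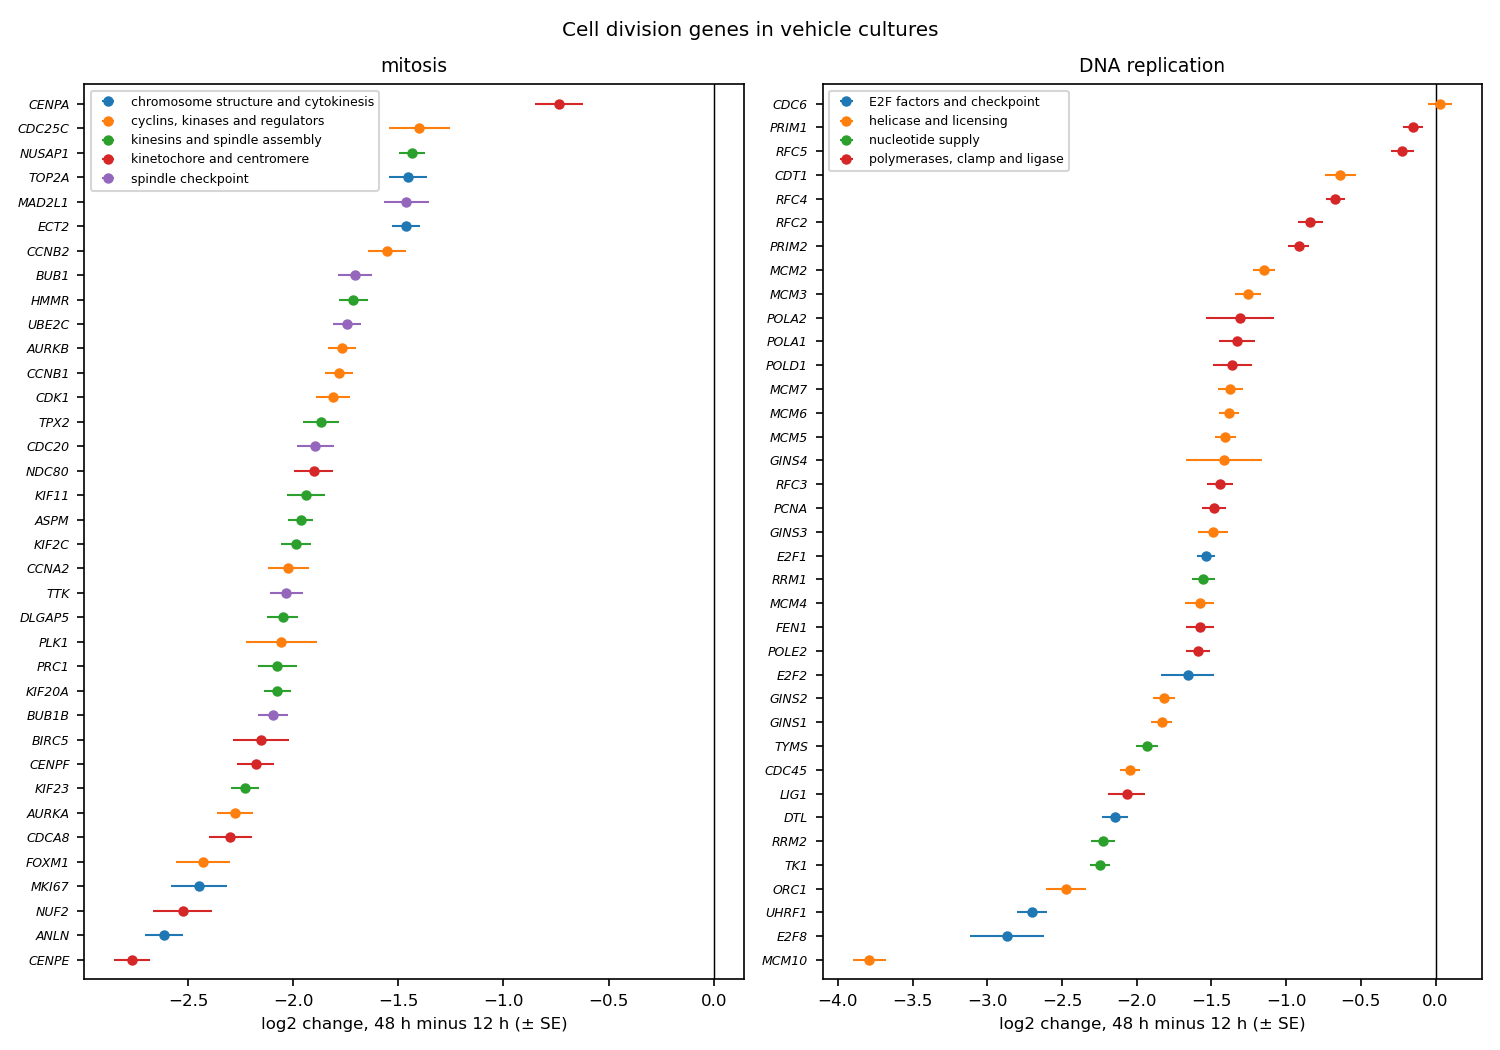
Log2 change from 12 h to 48 h (x axis, points with bars of 1 SE) of each measured gene of mitosis (left) and DNA replication (right), coloured by role. All mitosis genes lie to the left of 0, from CENPA (-0.73) to CENPE (-2.77), and all replication genes but CDC6 do, down to MCM10 (-3.79).

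Promoters of these groups were searched for elements known from cell cycle genes. The cell cycle homology region, TTTGAA or TTCGAA on either strand, stood in 17 of 30 mitosis promoters available (56.7%), in 14.6% of all promoters and in 9.59% of those of the genes tested. The CCAAT box, bound by NF-Y, stood in 23 of 30 (76.7%), in 33.0% of all and in 35.9% of those of the genes tested. The promoters of CCNB2 (chr15:59104896-59105145 on the plus strand) and CDK1 (chr10:60778081-60778330 on the plus strand) are printed because both hold matches to both elements, in capitals. In CCNB2 the matches begin 244, 120, 87, 54 and 29 bases before the start, and the last is to the homology region. In CDK1 they begin 161 (to the homology region) and 150 bases before it. A match describes the letters and is not a measured site. The list was assembled as mitosis genes, so its share of matches is a description and not a test.
CCNB2: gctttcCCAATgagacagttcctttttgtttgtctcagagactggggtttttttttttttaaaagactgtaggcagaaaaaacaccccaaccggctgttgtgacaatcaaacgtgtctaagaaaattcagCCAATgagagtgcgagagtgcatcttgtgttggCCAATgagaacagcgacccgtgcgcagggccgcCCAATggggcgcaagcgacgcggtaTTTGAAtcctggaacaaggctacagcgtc
CDK1: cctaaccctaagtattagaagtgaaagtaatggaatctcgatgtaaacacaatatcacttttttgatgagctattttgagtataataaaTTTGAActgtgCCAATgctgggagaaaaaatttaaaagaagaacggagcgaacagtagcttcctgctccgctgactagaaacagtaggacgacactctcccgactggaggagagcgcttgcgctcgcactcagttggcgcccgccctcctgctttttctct

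Sites for E2F, the factor that opens S phase when cyclin-dependent kinases release it from RB, were written as TTTGGCGC, TTTCCCGC or TTTCGCGC on either strand. At least 1 stood in 15 of 33 replication promoters available (45.5%), in 2.36% of all and in 4.05% of those of the genes tested. The promoters of UHRF1 (chr19:4909251-4909500 on the plus strand) and MCM6 (chr2:135876444-135876693 on the minus strand) are shown as a case with 1 match, 14 bases before the start, and one with 4, which overlap in pairs that begin 152, 148, 90 and 86 bases before it. The matched bases are in capitals, and a match describes the letters only. This list was assembled as replication genes, so its share of matches is a description and not a test.
UHRF1: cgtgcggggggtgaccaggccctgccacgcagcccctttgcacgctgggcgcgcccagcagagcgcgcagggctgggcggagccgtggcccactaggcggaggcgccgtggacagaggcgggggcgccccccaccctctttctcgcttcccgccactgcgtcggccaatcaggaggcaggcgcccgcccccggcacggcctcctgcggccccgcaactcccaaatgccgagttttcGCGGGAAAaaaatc
MCM6: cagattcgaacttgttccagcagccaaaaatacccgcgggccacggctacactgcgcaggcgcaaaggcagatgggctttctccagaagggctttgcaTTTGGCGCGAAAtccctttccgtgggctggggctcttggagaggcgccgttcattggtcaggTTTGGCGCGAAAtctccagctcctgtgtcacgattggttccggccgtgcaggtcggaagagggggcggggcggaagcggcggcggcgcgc

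All 9 measured EGF receptor ligands and receptors were called, where 57.5% of all genes were, 5 of them lower and 4 higher: the ligands NRG1 and HBEGF fell 2.31-fold and 2.14-fold and TGFA 1.73-fold, while EREG and BTC rose 2.86-fold and 2.79-fold. The receptor EGFR rose 1.71-fold and its partner ERBB2 fell 1.77-fold. EREG, a ligand of the EGF receptor, lay at 8.54, 8.45 and 8.55 at 12 h and at 9.89, 10.20 and 10.00 at 48 h. Its 48 h values were all above those at 12 h (adjusted p = 1.11e-05). For NRG1, both other probe sets changed in the opposite direction, and neither was called.

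Feedback genes of the ERK pathway, which report EGF-driven signalling, were lower in 12 of 24 cases and higher in 3. DUSP6, a phosphatase that ERK induces against itself, lay at 12.63, 12.65 and 12.62 at 12 h and at 11.62, 11.86 and 11.63 at 48 h. It was lower in all 48 h arrays, 1.90-fold (adjusted p = 7.16e-05). FOSL1, an AP-1 subunit whose level follows ERK, fell at least 1.14-fold and KLF10, an early growth-inhibitory factor, 2.53-fold. ATF3, described above, belongs to this list and was its largest rise. EGR1, an immediate early gene, lay at 10.52 ± 0.235 at 12 h and 10.53 ± 0.0366 at 48 h (SD), with overlapping groups (change 0.016 ± 0.117, adjusted p = 0.918) and a sign that differed between probe sets.

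Genes that FOXO factors induce when insulin and growth factors are withdrawn were higher in 8 of 18 cases and lower in 5 (44.4% and 27.8%, against 23.9% and 33.6% of all genes). The antiproliferative gene BTG1 and the FOXO target KLHL24 rose 2.04-fold and 2.16-fold (adjusted p = 1.28e-05 and 0.000599). PDK4, which blocks glucose oxidation, fell 2.74-fold (adjusted p = 5.74e-06). CCNG2, a cyclin linked to cell cycle exit, rose 1.21-fold (adjusted p = 0.00729), while the insulin receptor substrate IRS2 gave 0.11 ± 0.0687 (adjusted p = 0.224) with a sign that turned when its probe sets were averaged.

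Targets of YAP and members of the Hippo pathway, which senses cell density, were lower in 16 of 27 cases and higher in 4 (59.3% and 14.8%, against 33.6% and 23.9% of all genes), with a median of -0.41. The ectonucleotidase NT5E fell 3.11-fold, the Hippo activator NF2 2.68-fold and the YAP partner TEAD2 2.27-fold, the 3 falls of at least 2-fold, and neither other probe set of NT5E was called with it. CCN1 and CCN2 are the usual readouts of YAP. CCN1 lay at 11.46, 11.79 and 11.46 at 12 h and at 10.90, 11.11 and 10.77 at 48 h. The groups did not overlap, and the fall was 1.56-fold (adjusted p = 0.00310), with CCN2 down 1.36-fold (adjusted p = 0.00396). The kinases LATS1 and LATS2, which inactivate YAP, rose 1.45-fold and 1.32-fold.

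Actin and focal adhesion genes driven by SRF fell in 9 of 16 cases, against 33.6% of all genes, and rose in none, or in 1 without replicate 1 at 12 h or replicate 3 at 48 h. VCL, vinculin, which links adhesions to actin, lay at 11.28, 11.34 and 11.39 at 12 h and at 9.78, 9.85 and 9.79 at 48 h. Its groups stood well apart, a fall of 2.89-fold (adjusted p = 2.66e-06). MYL9 and MYH9, the light and heavy chains of nonmuscle myosin, fell 2.16-fold and 2.00-fold, and both alpha-actinins, ACTN4 and ACTN1, 1.87-fold and 1.81-fold. By the naming rule for genes with several probe sets that all moved alike, the actin-binding SMTN (at least 4.68-fold), the taurine transporter SLC6A6 (5.38-fold), the membrane protein TM4SF1 (5.08-fold), the protease PRSS23 (6.07-fold) and the repair helicase BRIP1 (6.80-fold) were also among the falls.

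Of the lists outside cell division, that of matrix, protease and TGF-beta genes had the most falls. Of its 35 measured genes 27 were called lower and 2 higher (77.1% and 5.71%, against 33.6% and 23.9% of all genes). The list had 14 falls of at least 2-fold, against 6.65% of all genes, and a median of -0.69. Proteases of the pericellular space came first: after MMP1, PLAT lay at 7.96, 7.82 and 7.89 at 12 h and at 4.65, 4.99 and 5.37 at 48 h. It fell 7.37-fold without overlap (adjusted p = 8.36e-06), the urokinase receptor PLAUR fell 3.26-fold, urokinase itself, PLAU, 2.05-fold and matrilysin, MMP7, 2.59-fold. THBS1, which activates latent TGF-beta, lay at 8.61, 8.73 and 8.74 at 12 h and at 6.04, 6.38 and 6.19 at 48 h. All 48 h arrays were lower, 5.62-fold (adjusted p = 1.94e-06), with both other probe sets. The TGF-beta target TGFBI fell 3.13-fold, the activin subunit INHBA at least 3.02-fold and the receptor TGFBR2 1.62-fold, whereas the ligand TGFB1 gave -0.26 ± 0.118 (adjusted p = 0.0932).

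Of 9 measured collagens and laminins 7 were lower (77.8%, against 33.6% of all genes), among them the basement membrane collagens COL4A1 (2.01-fold) and COL4A2 (1.78-fold). LOX, which cross-links collagen, rose 4.41-fold (adjusted p = 6.01e-06), the 1 rise of at least 2-fold in the list. Fibronectin, FN1, gave -0.11 ± 0.0652 (adjusted p = 0.194), and averaging all of its probe sets gave 0.53 (adjusted p = 0.00898). The summed linear level of the fibroblast marker list was 9563 to 10756 at 12 h and 8535 to 9128 at 48 h. Of its 5 measured members, LUM and DCN, both matrix proteoglycans, fell 2.30-fold and 2.21-fold, the collagen COL14A1 rose 1.56-fold, and RGS5 and FBLN1 gave -0.12 ± 0.0887 and -0.15 ± 0.151 (adjusted p = 0.287 and 0.418). The list's part in the result was not tested, and its members PDGFRA, PDGFRB, THY1 and FAP were under the floor at both times.

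Of 31 measured cell junction genes 10 were called higher and 8 lower (32.3% and 25.8%, against 23.9% and 33.6% of all genes), 3 at least 2-fold in each direction. When single arrays were left out, 7 to 9 were called higher and 8 to 9 lower. CDH1, which encodes E-cadherin, the main adhesion protein of epithelia, lay at 7.28, 7.14 and 6.80 at 12 h and at 7.89, 8.22 and 8.09 at 48 h. All 48 h arrays were above those at 12 h, a rise of 1.99-fold (adjusted p = 0.000644). The splicing regulator ESRP1, which sets epithelial isoforms, rose 3.97-fold, the tight junction claudins CLDN16 and CLDN3 5.43-fold and at least 2.40-fold, and occludin, OCLN, 1.97-fold. The kidney cadherin CDH6 fell 2.76-fold, the junction proteins CGNL1 and CGN 2.74-fold and 1.66-fold, and CLDN2, the leaky claudin of the proximal tubule, 2.12-fold. The tubule cadherin CDH16 rose 1.26-fold and the neural-type cadherin CDH2 fell 1.21-fold.

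**Figure D5:**
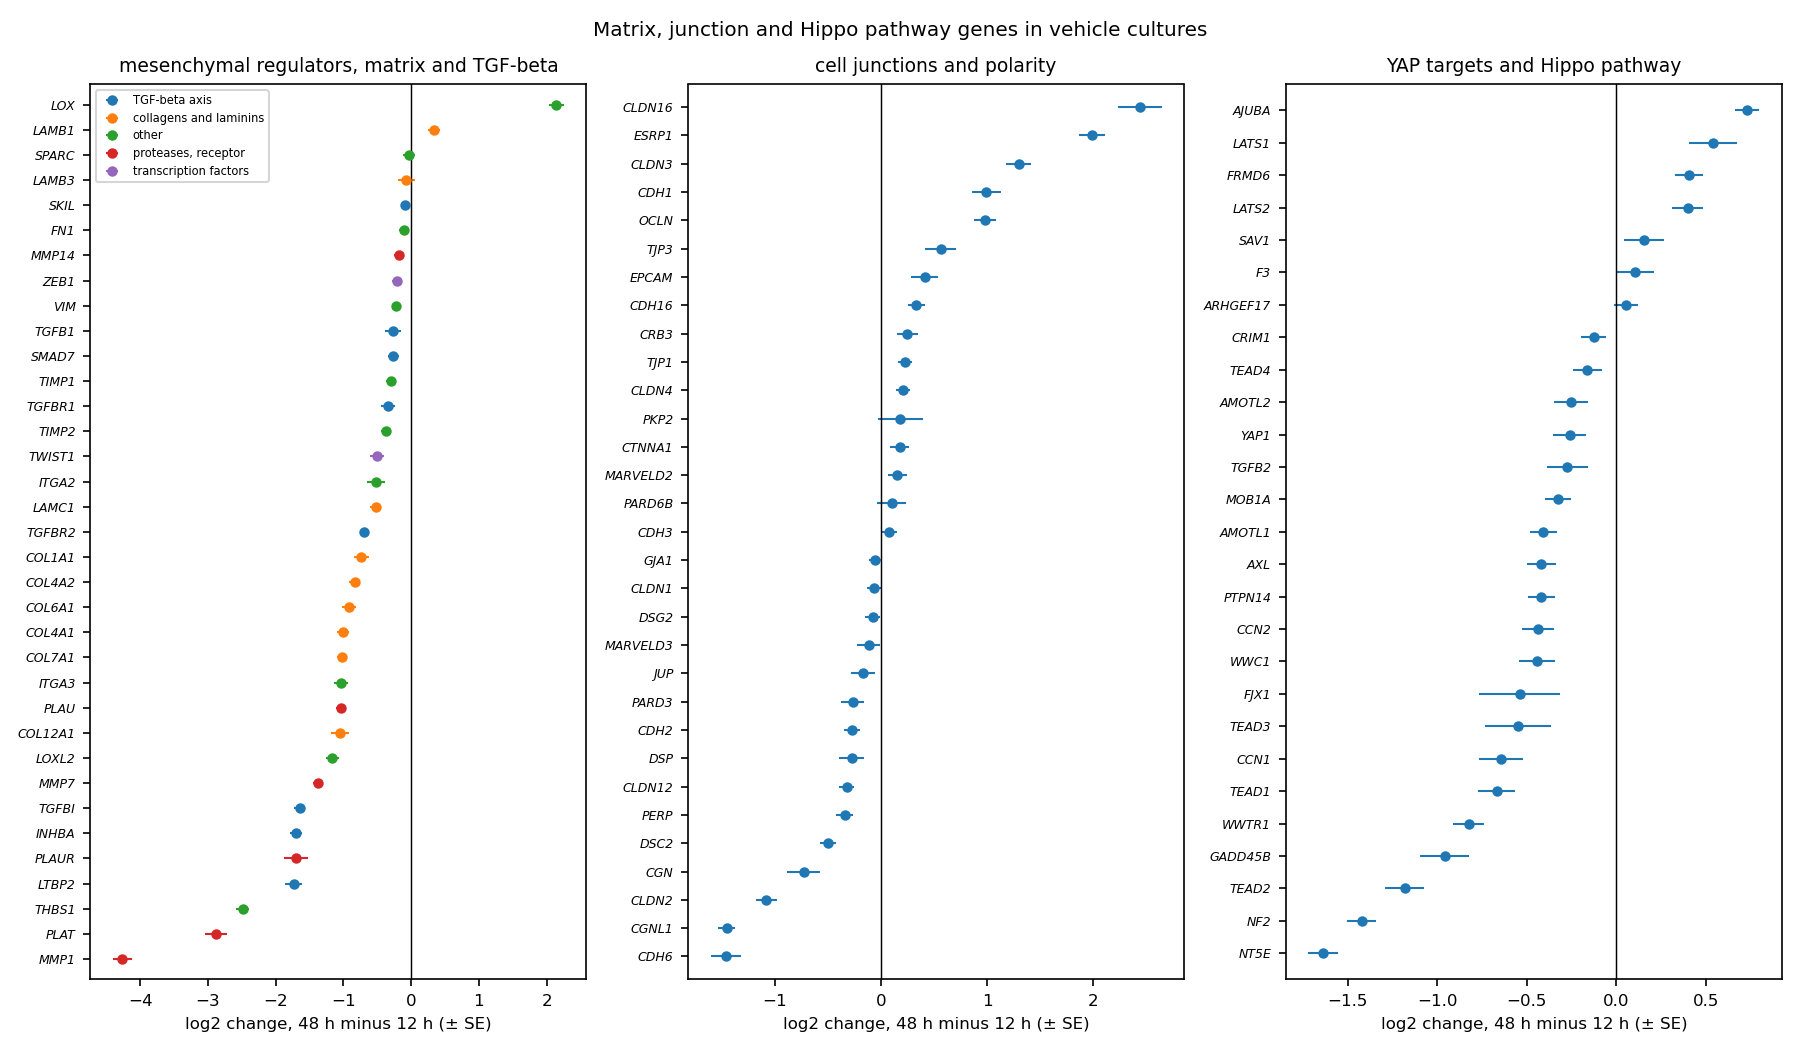
Log2 change from 12 h to 48 h (x axis, points with bars of 1 SE) of each measured gene of the matrix and TGF-beta list (left, coloured by role), of cell junctions (middle) and of the YAP and Hippo list (right). Most matrix genes lie left of 0, down to MMP1 (-4.26), with LOX (2.14) on the right, and the junction genes run from CDH6 (-1.47) to CLDN16 (2.44).

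Primary cilium genes, which resting epithelial cells use to build a sensory cilium, rose in 21 of 32 cases and fell in none, or in 1 without replicate 3 at 48 h, against 23.9% of all genes higher. Leaving out single arrays gave 14 to 18 called higher. The steps were small, with a median of 0.40 and 1 rise of at least 2-fold. IFT27, a small GTPase of transport within the cilium, lay at 6.40, 6.19 and 6.22 at 12 h and at 7.68, 7.57 and 7.60 at 48 h. The 48 h arrays were all higher, by 2.54-fold (adjusted p = 9.5e-06). IFT20 rose 1.95-fold and BBS9, a subunit of the BBSome coat, 1.94-fold. Whether cilia formed was not measured.

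Other stress programmes moved less. Heat shock and cytosolic chaperones were lower in 14 of 22 cases, against 33.6% of all genes, and higher in 1, or in none without replicate 2 or 3 at 12 h or replicate 1 at 48 h. None changed by 2-fold, with BAG3 down 1.82-fold and HSPH1 and HSP90AA1, both helpers of protein folding in the cytosol, down 1.68-fold and 1.64-fold. Targets of NRF2, the antioxidant regulator, were lower in 11 of 23 cases and higher in 7 (47.8% and 30.4%, against 33.6% and 23.9% of all genes). NQO1, a quinone reductase, lay at 10.59, 10.47 and 10.44 at 12 h and at 9.67, 9.66 and 9.82 at 48 h. It was lower in every 48 h array, 1.72-fold (adjusted p = 0.000122), as were the aldo-keto reductases AKR1C1 and AKR1C2 (2.92-fold and 2.48-fold), near-identical genes whose probes may share signal. Their calls ended without the level filter, where a probe set that had failed the filter stood for each gene (log2 change -0.0080 and -0.010, adjusted p = 0.9999 and 0.982). HMOX1, which degrades haem, rose 1.16-fold (adjusted p = 0.0286), and this call ended without any of 4 single arrays, replicates 1 and 3 at 12 h and at 48 h (adjusted p of 0.0539 to 0.103).

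Metallothioneins, which bind zinc and copper, were lower in 8 of 11 cases of their list and higher in 2 (72.7% and 18.2%, against 33.6% and 23.9% of all genes). MT1X lay at 12.59, 12.63 and 12.63 at 12 h and at 11.87, 11.86 and 12.01 at 48 h. The groups did not overlap, with a fall of 1.63-fold (adjusted p = 0.000116), MT1M fell 2.86-fold and the zinc importer SLC39A10 2.96-fold. MT1 genes are near-identical, and their probes may share signal.

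Targets of p53 were higher in 8 of 20 cases, 4 at least 2-fold against 3.98% of all genes, and lower in 6 (40.0% and 30.0% called, against 23.9% and 33.6% of all genes). The 4 were GDF15, SESN2, GADD45A and ZMAT3, of which the first 3 are also known to follow ATF4. GDF15, a secreted stress cytokine, lay at 10.04, 9.87 and 9.98 at 12 h and at 12.30, 12.20 and 12.33 at 48 h. Its 48 h arrays were all higher, 4.97-fold (adjusted p = 1.12e-06). This call ended without the level filter, where a probe set that had failed the filter stood for the gene (log2 change 0.076, adjusted p = 0.375). SESN2, an inhibitor of mTORC1, rose 3.36-fold and the growth arrest gene GADD45A 2.66-fold, while MDM2, the standard p53 target, gave -0.11 ± 0.0955 with overlapping groups (adjusted p = 0.338).

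Apoptosis regulators were higher in 10 of 20 cases, against 23.9% of all genes, none by 2-fold, and lower in 5, against 33.6%, 3 of them at least 2-fold. Without single arrays 6 to 8 were called higher, with 6 when replicate 3 at 12 h or replicate 1 at 48 h was left out. The death ligand TNFSF10 fell 2.60-fold, the death receptor TNFRSF21 2.57-fold and the caspase-activating APAF1 2.50-fold. PMAIP1, which encodes the killer protein NOXA, rose 1.73-fold. TNFRSF10B, a death receptor that CHOP induces, stands in the p53 list and rose 1.99-fold (adjusted p = 4.38e-05).

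Of 18 markers of tubular injury 7 were lower, against 33.6% of all genes, and 3 higher, against 23.9%, or 1 higher without replicate 3 at 12 h. The 2 falls of at least 2-fold were those of SOX9, a factor of the regenerating tubule (3.80-fold), and of the adhesion receptor CD44 (2.45-fold), with all 6 of its other probe sets. HAVCR1, which encodes KIM-1, lay at 9.26, 9.72 and 9.18 at 12 h and at 9.79, 9.97 and 9.86 at 48 h. Its 48 h arrays were all above those at 12 h (1.40-fold, adjusted p = 0.0205), but the call ended without the filter (adjusted p = 0.0791) and without replicate 1 or 3 at 12 h or replicate 2 at 48 h (adjusted p of 0.0645 to 0.0705). Of 7 measured proximal tubule genes 4 were higher and 2 lower (57.1% and 28.6%, against 23.9% and 33.6% of all genes). Only 1 was lower without replicate 2 at 12 h or replicate 1 or 2 at 48 h. MIOX and SLC4A4 were up 1.63-fold and 1.63-fold, and GATM, which starts creatine synthesis, was down 1.63-fold. The summed linear level over the 32 proximal tubule genes with a probe set was 7841 to 8763 at 12 h and 11186 to 12084 at 48 h. SLC4A4 was the highest of them, with a mean log2 level of 11.87 at 12 h and 12.57 at 48 h.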

How the data were processed

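RNA of HK-2 vehicle cultures was measured on Affymetrix arrays. The deposited values are log2 levels of 54675 probe sets that the authors made with GCRMA, per the submitters' processing notes (version not given), which corrects background, normalises and summarises probes. They were not normalised again. An annotation table paired 41097 probe sets with 1 symbol, 1801 with several and 11777 with none; 62 control probe sets were left out, and 54 symbols without a current match were kept. Kept were 18417 probe sets with 1 symbol and a log2 value over 4 on 3 or more of the 6 arrays. The kept probe set of highest mean stood for its gene, one that may cross-hybridise (_x_at) only where it had no other (348 genes). A 2-group model of the 6 arrays was fitted by limma 3.58.1 (lmFit and eBayes, R 4.3.3), with Benjamini-Hochberg adjustment over 10442 genes and calls at 0.05. The model was also run on data simulated from the levels and spreads of the real arrays. Errors beside changes are SEs, beside levels SDs.

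The members and gene lists were chosen with earlier results of these data known, and the roles, the 2-fold counts and the ER stress element after seeing values. The naming rule took the 12 largest called changes without overlap in each direction, the 12 largest among genes whose probe sets were all called alike, the 3 largest called in each list, and set anchor genes. Other list members named for their role were chosen after their values were seen. Some list members, CA9 and HSPA1A among them, were not analysed here. Same-numbered replicates deviated together at correlations of -0.022, 0.086 and 0.13, so the numbers were not taken to pair cultures. Promoters are RefSeq GRCh38.p14, 1 per symbol, the most upstream start. Alternatives were no filter, a floor of 6, quantile normalization, median centring, the mean of probe sets, trend and robust moderation, all 12 arrays in the fit, a replicate block, and leaving out each array. Plots used matplotlib 3.10.9 (Python 3.11.15).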

Additional observations from a re-analysis of the deposited data

How the results depend on the processing

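The number of genes called, 6007, was 5346 without the filter, 5499 with a floor of 6, 5974 after quantile normalization, 5872 after median centring, 6090 with the mean of probe sets, 6162 with trend and robust moderation and 5600 with all 12 arrays, and 5173 to 5630 without single arrays. Calls in the same direction in the fit on 6 arrays and without each array numbered 4788. With the replicate block, a pairing that the check did not bear out, 5949 genes were called, 5707 of them called in both fits. Counts for mitosis (36 lower in every setting), the unfolded protein response (27 or 28 higher), ATF4 (35 to 38 higher) and DNA replication (33 to 36 lower) stayed within these ranges. Of 2461 values of the 177 named genes under 14 alternatives, 2403 kept their direction and side of the threshold, 40 lost the call and 8 gained it; the 14 genes that lost it were AKR1C1, AKR1C2, AQP3, ARNT, BCL2L1, FKBP5, GDF15, HAVCR1, HMGCS1, HMOX1, MT1G, PODXL, PROM1 and TFRC. The sign turned in 10. With the mean of probe sets it turned for EGR1 (-0.17), FN1 (0.53), IRS2 (-0.28) and SCD (0.19), and after quantile normalization for SLC2A1 (0.0028). Without single arrays it turned for CDKN1B (range -0.12 to 0.14), EGR1 (-0.12 to 0.11) and SLC2A1 (-0.095 to 0.061). The cause of these turns was not tested. Without the filter it turned for H2AJ (0.22), where a probe set that had failed the filter stood for the gene. Such probe sets also stood for AKR1C1, AKR1C2, GDF15 and MT1G where their calls ended without the filter. Of 1176 counts of all 42 lists in both directions, 63 moved by over 1.5 times. Signals near the floor of 4 limit what falls such as TXNIP's can show.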

Other observations

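Clock genes, which keep daily rhythms, were higher in 6 of 17 cases, against 23.9% of all genes, and lower in 4, against 33.6%, with 2 rises and 1 fall of at least 2-fold. PER2, a repressor of the clock, lay at 5.08, 5.04 and 5.01 at 12 h and at 7.01, 7.45 and 7.17 at 48 h. All 48 h arrays were above all 12 h arrays, a rise of 2.17 ± 0.112 (4.49-fold, adjusted p = 5.64e-06). NR1D2, which represses BMAL1, rose 3.37-fold, and BMAL2, an activator subunit, fell 2.18-fold. BMAL1 itself gave 0.31 ± 0.128 (adjusted p = 0.0713). Glucocorticoid targets, relevant because the medium held hydrocortisone, were mixed: TSC22D3, an anti-inflammatory target, rose 3.67-fold, while SGK1, a kinase that raises sodium transport, fell 2.03-fold, and FKBP5, a brake on the receptor, fell 1.38-fold, a call that ended with the mean of probe sets (adjusted p = 0.179). GLUL, glutamine synthetase, fell 1.92-fold.

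Interferon-response genes were higher in 8 of 26 cases and lower in 9 (30.8% and 34.6%, against 23.9% and 33.6% of all genes). OAS3, an antiviral RNA sensor, lay at 7.67, 7.43 and 7.59 at 12 h and at 5.36, 5.26 and 5.27 at 48 h. It fell 4.81-fold in arrays that did not overlap (adjusted p = 1.53e-06), and IFIT1 fell 2.03-fold, while the exonuclease ISG20 rose at least 2.93-fold and the transcription factor IRF1 2.69-fold. In the list of NF-kB and cytokines 6 of 23 were higher and 4 lower (26.1% and 17.4%, against 23.9% and 33.6% of all genes). The iron-binding LCN2 rose at least 2.06-fold, the cytokine IL6 fell at least 1.57-fold and the inhibitor NFKBIA gave -0.16 ± 0.0910 (adjusted p = 0.178). In iron handling the metal importer SLC39A14 rose 3.01-fold and the reductase STEAP3 1.53-fold, and the transferrin receptor TFRC fell 1.51-fold, a call that ended with the mean of probe sets (adjusted p = 0.346). The histone gene H2AC6 rose 6.91-fold (adjusted p = 3.27e-06) and H1-2 fell 2.02-fold. CYP1B1, a target of the AhR, fell 3.54-fold with both other probe sets.

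Of 4751 other probe sets of called genes, 4006 had the same sign (84.3%), and 153 called genes had another probe set called the opposite way. Of 757 other probe sets of the genes that changed at least 2-fold, 729 had the same sign (96.3%). In 6 of those 1110 genes another probe set was called the opposite way: PCDH7, TMF1, FOLR1, ZFAS1, SLC6A15 and SOX6, named after their values were seen. For TMF1 the probe set with the highest mean fell by 1.02 on the log2 scale, while the 3 others rose by 0.50 to 0.89.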
